A study of Mus musculus with 6 samples.

Results

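The AP-1 subunits were examined with and without insulin in Mvt-1, a cell line from a mouse mammary tumour. AP-1 is a family of dimeric transcription factors built from subunits of the Fos and Jun families, and the 10 genes taken here were Fos, Fosb, Fosl1, Fosl2, Jun, Junb and Jund together with the related basic leucine zipper factors Atf3, Batf3 and Maff. Members were all probes whose gene symbol in the platform annotation is one of these names. That gave 14 of 45281 probes on the array, for 9 of the 10 genes. No probe carried the symbol Fosl1 in the annotation used, and that gene was not analysed here. RNA came from 3 samples of cells given 10 nM insulin for 90 min and 3 samples of cells given vehicle, and both groups had been kept without serum for 16 h beforehand. Mvt-1 is a single line that was derived from a mammary tumour of mice carrying Myc and Vegf transgenes driven by the MMTV promoter, so both groups carry these transgenes. Each sample was hybridized to a single-colour Illumina beadchip, which reports a fluorescence signal and a detection p-value for each probe. Whether a group's 3 samples were grown as separate cultures is not stated in the labels. The p-values therefore reflect variation among these samples alone, and that variation may be technical.

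Fos proteins dimerise only with partners such as the Jun proteins, whereas Jun proteins can also pair with one another. The dimers bind short DNA elements, the phorbol ester response element and the cyclic AMP response element, and regulate genes of proliferation, invasion and stress. Fos, Fosb, Jun and Junb are classical immediate-early genes whose transcripts appear within minutes of growth factor stimulation through MAP kinases, ternary complex factors and Srf, and often decline again soon after. Jund is induced much less sharply. Atf3 is a stress-induced factor that can repress or activate, Batf3 is a partner of Jun proteins best known from dendritic cells, and Maff is a small Maf protein that lacks a transactivation domain.

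Between 17617 and 18232 probes, or 38.9% to 40.3%, were detected per array at a detection p under 0.05, and the lowest detected signal on the 6 arrays lay between 79.2 and 80.2. Of the markers of mammary epithelium, the keratin genes Krt8 and Krt18 were detected on all 6 arrays. Cdh1 and Elf3 had no probe detected on more than 3 arrays, and Epcam and Krt19 were detected on 0 arrays. Of the fibroblast markers, 3 of 6 (Col3a1, Dcn and Pdgfrb) were detected on at least 3 arrays, whereas 0 of the 4 immune, 0 of the 3 endothelial and 0 of the 3 fat cell markers with a probe reached 3 arrays. In a whole-culture measurement, fewer cells with a transcript and less transcript per cell cannot be told apart.

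A gene was tested when a probe of it was detected on at least 3 of the 6 arrays, and 7 of the 10 AP-1 genes met this: Fos, Fosl2, Jun, Junb, Jund, Atf3 and Maff. None of the 7 changed past the threshold of an adjusted p of 0.05 (limma with Benjamini-Hochberg over 9478 genes), so the count was 0 higher and 0 lower with insulin, against 0.464% of all genes tested (0.127% higher and 0.338% lower). At an unadjusted p under 0.05 there was 1 member, Atf3, against 11% of all genes. The log2 changes of the 7 ran from -0.25 (Fos) to 0.42 (Atf3) with a median of 0.026, where the median over all genes tested was -0.015. Of the 7, 4 were positive and 3 negative. Their 95% intervals together spanned fold changes from 0.696, the lower end for Fos, to 1.76, the upper end for Atf3. These intervals are for corrected signals that include an added offset of 16, which lessens the fold changes of dim probes. They therefore set no limit on the change in transcript level. The same fit over all 17482 detected probes called 0 member probes, where it called 0.0572% of all probes.

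**Figure D1:**
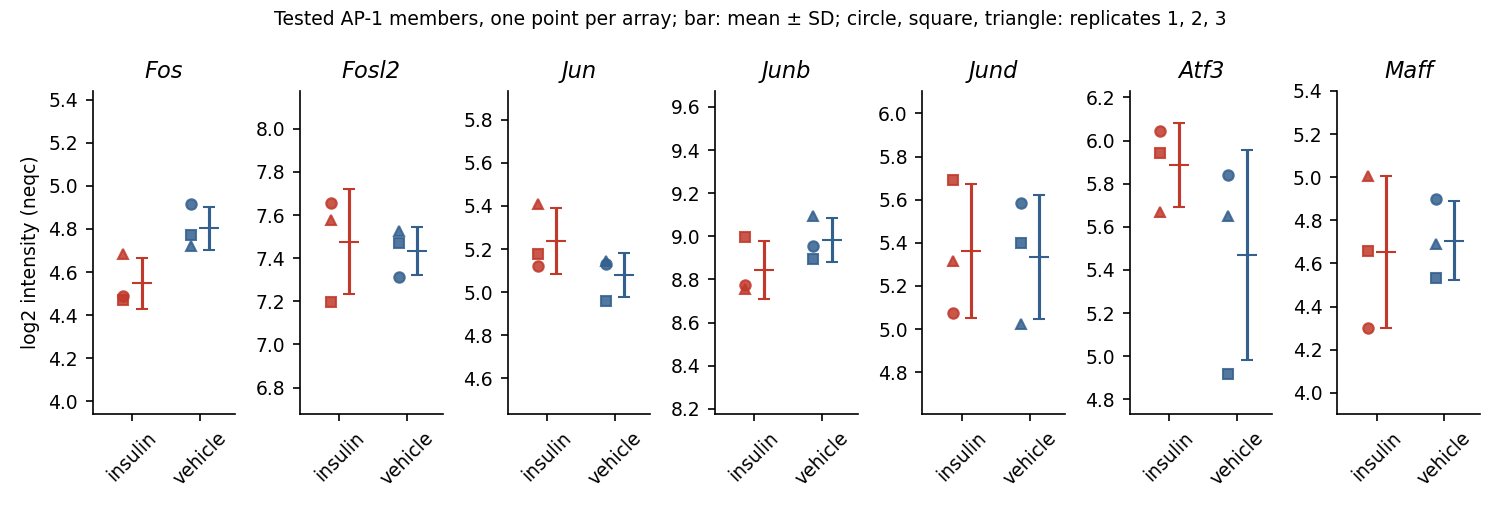
Log2 intensity after neqc correction (vertical axes, each spanning an equal range around its own gene) of the 7 tested AP-1 genes, with the 3 insulin arrays left and the 3 vehicle arrays right in each panel. Points are arrays and bars the mean ± SD, and only for Fos do the groups not overlap.

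The promoter windows of Fos, Jun and Atf3 are shown because these genes are the lowest, the second highest and the highest of the tested changes, and each window holds a match to an element that AP-1 or ATF dimers are known to bind. The sequences are from RefSeq (GRCm38.p6), run from 250 bases before to 50 bases after the annotated start, and read 5′ to 3′ on the gene's strand. They lie at chr12:85473640-85473939 on the plus strand for Fos, at chr4:95052173-95052472 on the minus strand for Jun and at chr1:191183284-191183583 on the minus strand for Atf3. Capitals mark TGACGT on either strand in Fos and Atf3, and TGACATCA in Jun.
Fos: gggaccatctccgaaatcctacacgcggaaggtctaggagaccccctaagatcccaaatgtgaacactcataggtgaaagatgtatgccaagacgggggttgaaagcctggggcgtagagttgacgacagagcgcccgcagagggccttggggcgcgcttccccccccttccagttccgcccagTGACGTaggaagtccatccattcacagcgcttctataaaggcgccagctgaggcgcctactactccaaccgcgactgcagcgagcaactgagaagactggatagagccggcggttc
Jun: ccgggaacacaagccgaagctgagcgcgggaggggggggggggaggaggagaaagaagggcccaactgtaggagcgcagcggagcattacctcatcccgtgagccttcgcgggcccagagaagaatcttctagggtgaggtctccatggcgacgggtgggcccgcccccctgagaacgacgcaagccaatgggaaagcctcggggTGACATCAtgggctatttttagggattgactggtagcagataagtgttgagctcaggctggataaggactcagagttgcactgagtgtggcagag
Atf3: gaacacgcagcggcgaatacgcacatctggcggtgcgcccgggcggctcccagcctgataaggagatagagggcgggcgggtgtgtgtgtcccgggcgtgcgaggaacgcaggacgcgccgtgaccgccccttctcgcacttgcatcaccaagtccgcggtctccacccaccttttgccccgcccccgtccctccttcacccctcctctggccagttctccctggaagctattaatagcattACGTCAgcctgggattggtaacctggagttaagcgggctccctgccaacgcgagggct
The match in Fos began at position -66 from the annotated start, that in Jun at -45 and that in Atf3 at -8. Over all 32851 windows of the RefSeq table, 7.51% held TGACGT and 3.62% held TGACATCA on either strand. Windows were found for 9 of the 10 members, 11 in all. TGACGT also occurred in the second of the 3 windows of Maff, once on each strand of the palindrome TGACGTCA, which 1.79% of all windows held, and TGACATCA in the third. TGANTCA, present in 7.81% of all windows, and the CArG box, present in 1.63%, had 0 matches in the 11 windows. Bases more than 250 before the annotated start were not searched, so an element further upstream would not be seen. Fosb, Fosl2, Junb, Jund and Batf3 held no match to any of these elements in their windows. A match is a description of these letters and not a measured site.

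Among the Fos family, Fos encodes the founding subunit, which cannot bind DNA without a partner. Its single probe gave non-normalized signals of 79.4, 80.2 and 84.2 with insulin and 86.6, 85.3 and 84.3 with vehicle. All 3 insulin signals thus lay below all 3 vehicle signals, by 0.1 at the nearest pair, and all 6 lay close to the lowest detected signal. On the log2 scale after correction the level was 4.55 ± 0.12 with insulin and 4.80 ± 0.10 with vehicle (SD, n = 3 each). The log2 change of -0.25 ± 0.13 (standard error; 95% interval -0.52 to 0.014) did not pass the test (limma adjusted p = 0.481). Fos was the 1 tested member of 7 (14.3%) whose groups did not overlap, against 15.9% of all genes and 9.34% in the lower direction. The log2 change was -0.081 in the authors' deposited processed values, where background was not corrected.

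Fosl2 encodes a Fos-related subunit without a strong transactivation domain. Its brightest probe gave signals of 253.7, 205 and 256.1 with insulin and 213.7, 234.7 and 246.3 with vehicle. The insulin arrays included both the highest values and the lowest one, so the groups overlapped. The log2 level was 7.48 ± 0.24 with insulin and 7.43 ± 0.11 with vehicle (SD, n = 3 each), a log2 change of 0.042 ± 0.14 (95% interval -0.26 to 0.34; limma adjusted p = 0.954). A further Fosl2 probe was detected on 0 insulin and 2 vehicle arrays, at signals of 74 to 78.1 with insulin and 76.7 to 83.6 with vehicle, at least 1.03-fold lower with insulin with no allowance for error. For such a bound the vehicle mean was set, after correction, against a floor on each insulin array, which was the lowest signal detected there or the measured value if that was greater. The remaining Fosl2 probe was detected on 0 arrays.

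Fosb, whose full-length product is a strong activator, did not pass the detection filter. Its probe was detected on 1 insulin and 1 vehicle array, with signals of 76.9, 76.4 and 82.9 with insulin and 78.4, 81 and 79.3 with vehicle. The insulin arrays lay on both sides of the vehicle arrays. A fit without the detection filter, over 19057 genes, gave Fosb a log2 change of -0.038 ± 0.097 that did not pass (limma adjusted p = 0.958). That fit called 0 genes in all.

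Within the Jun family, Jun encodes the subunit with the strongest transactivation, a substrate of JNK kinases. Its probe gave signals of 91.8, 95.8 and 101.7 with insulin and 91.2, 88.9 and 93.7 with vehicle. The groups overlapped because insulin replicate 1 fell within the vehicle range. The log2 level was 5.24 ± 0.15 with insulin and 5.08 ± 0.10 with vehicle (SD, n = 3 each), and the log2 change of 0.16 ± 0.13 (95% interval -0.12 to 0.43) did not pass (limma adjusted p = 0.707). It was 0.072 without insulin replicate 3, 0.10 without vehicle replicate 2 and 0.061 in the authors' deposited processed values.

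Junb encodes a Jun protein that can oppose Jun in cell cycle control. Its brighter probe lay far above background, with signals of 483.5, 558 and 501 with insulin and 555.1, 535.5 and 612.3 with vehicle. Of the insulin arrays, 2 lay below all vehicle arrays and replicate 2 lay among them. The log2 change was -0.14 ± 0.13 (95% interval -0.41 to 0.13; limma adjusted p = 0.753), so the interval reached up to 1.10-fold and down to 0.753-fold. Without vehicle replicate 3 the log2 change was -0.082, and without insulin replicate 2 it was -0.22. The further Junb probe was detected on 0 insulin and 1 vehicle array and differed by -0.15 on the log2 scale, with overlapping groups.

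Jund encodes the most constitutively expressed Jun protein. Its probe gave signals of 90.7, 111.4 and 98.7 with insulin and 103.8, 100.1 and 90.7 with vehicle. The groups overlapped, each with an array at 90.7, and insulin replicate 2 lay above all vehicle arrays. The log2 change was 0.026 ± 0.17 (95% interval -0.33 to 0.38; limma adjusted p = 0.980).

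Atf3, which pairs with Jun proteins and binds AP-1 and cyclic AMP response elements, had the largest change of the 7 tested. Its signals were 121.8, 121.4 and 110.7 with insulin and 112.8, 88.1 and 108.6 with vehicle. Insulin replicates 1 and 2 lay above all vehicle arrays, while insulin replicate 3 lay below vehicle replicate 1. The log2 level was 5.88 ± 0.20 with insulin and 5.47 ± 0.49 with vehicle (SD, n = 3 each). The log2 change was 0.42 ± 0.19, or 1.33-fold, with an unadjusted p of 0.0436 that did not hold over all genes (limma adjusted p = 0.442). Without vehicle replicate 2, the lowest of the 6 arrays, the log2 change was 0.14 (limma adjusted p = 0.792), and in the authors' deposited processed values it was 0.18.

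By the correlation of log2 levels over the 6 arrays, the genes most like Atf3 among 9477 others were Kctd15 (Pearson r = 0.988), Sfxn5 (r = 0.986) and Tmf1 (r = 0.973). These are the highest of very many correlations over 6 arrays, and array and treatment differences enter all of them. Kctd15, Sfxn5 and Tmf1 had log2 changes of 0.45, 0.16 and 0.25, none past the threshold (limma adjusted p = 0.352, 0.730 and 0.576).

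Maff, a small Maf protein that acts through partners, gave signals of 75.5, 84 and 90.9 with insulin and 86.3, 80.8 and 83.7 with vehicle at its brighter probe. Insulin replicates 1 and 3 were the lowest and the highest of the 6 arrays, and the probe was detected on 2 insulin and 3 vehicle arrays. The log2 change was -0.052 ± 0.16 (95% interval -0.40 to 0.29; limma adjusted p = 0.950). The further Maff probe was detected on 0 arrays.

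**Figure D2:**
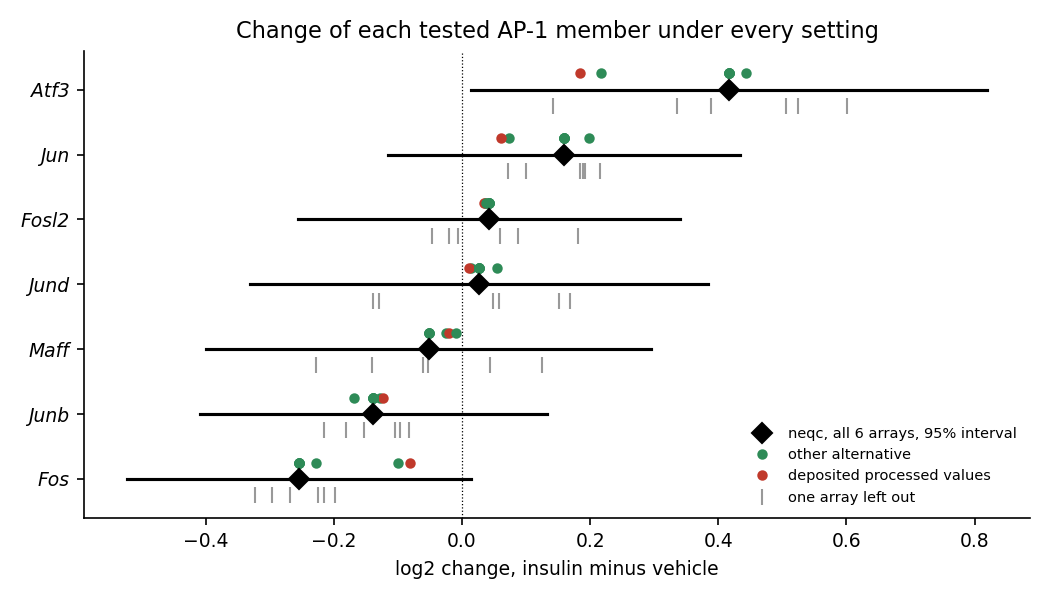
Log2 change, insulin minus vehicle (horizontal axis), of the 7 tested AP-1 genes. Diamonds with bars are the neqc values with 95% intervals, dots above them other processing settings (red, the deposited processed values) and ticks below them fits without 1 array. Atf3 runs from 0.14 to 0.60, and Fosl2, Jund and Maff have ticks on both sides of 0.

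Batf3 had a pair of probes near the detection limit. Probe ILMN_2930552 gave signals of 80.8, 77.4 and 84.8 with insulin and 76, 73.1 and 72.1 with vehicle, and probe ILMN_2526739 gave 76.9, 75.9 and 78.5 with insulin and 69.8, 73.6 and 73.6 with vehicle. At both probes all 3 insulin arrays lay above all 3 vehicle arrays. ILMN_2930552 was detected on 2 insulin arrays and 0 vehicle arrays, and ILMN_2526739 on 0 arrays, so neither entered the test. Among the 27799 probes that failed the filter, 4.5% had all insulin signals above all vehicle signals. After correction ILMN_2930552 was at least 1.06-fold higher with insulin, with no allowance for error. In a fit without the filter, over 19057 genes, the log2 change of Batf3 was 0.31 ± 0.10 and did not pass (limma adjusted p = 0.434). That fit called 0 genes in all, so not passing there says nothing particular about Batf3. Both probes read the same RNA extracts, so they are not independent replicates.

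**Figure D3:**
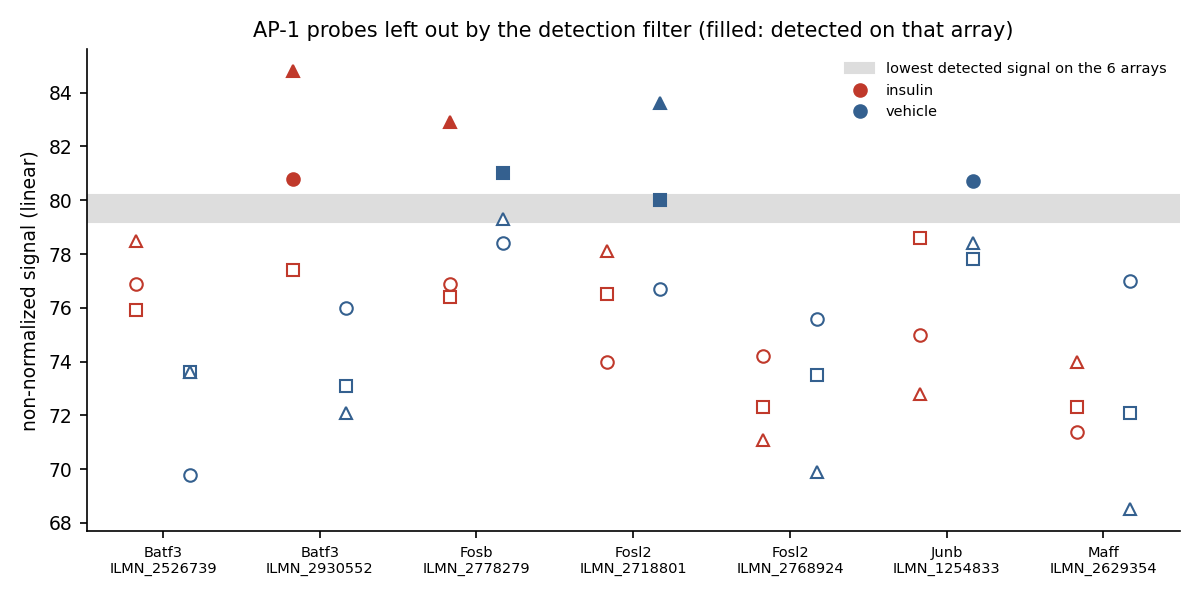
Non-normalized signal (vertical axis, linear, not starting at 0) of the 7 AP-1 probes that failed the detection filter, with the insulin arrays left of the vehicle arrays and circles, squares and triangles for replicates 1, 2 and 3. Filled symbols are detected on that array, and the grey band is the lowest detected signal, 79.2 to 80.2. At both Batf3 probes the insulin arrays lie above the vehicle arrays.

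Other basic leucine zipper factors, which pair or compete with AP-1 subunits, were taken as a list of 29 genes, of which 28 had a probe and 20 were tested. Of these, 0 were higher and 0 lower past the threshold, 8 were positive and 12 negative, and 0 had an unadjusted p under 0.05, against 11% of all genes. The median log2 change was -0.017. Nfe2l2, the oxidative stress factor NRF2, had signals of 223.9, 328.4 and 225 with insulin and 178.2, 230.8 and 222.1 with vehicle. Its log2 change was 0.38 ± 0.18 (limma adjusted p = 0.466), with overlapping groups, and was 0.14 without insulin replicate 2 and 0.23 without vehicle replicate 1. Cebpb, a factor of mammary development and inflammation, had signals of 5691.2, 5263 and 5833.4 with insulin and 4869.6, 5240.4 and 4942.4 with vehicle. Its groups did not overlap, the 1 such gene of 20 (5%), against 6.59% higher and 9.34% lower over all genes, and the log2 change of 0.23 ± 0.12 did not pass (limma adjusted p = 0.519). Atf7, a relative of Atf2, had a log2 change of -0.30 ± 0.16, which was -0.13 without vehicle replicate 3 and -0.46 without vehicle replicate 1. Creb5, a further partner of Jun, had one of 0.20 ± 0.15 at its brighter probe and of -0.028 at its other detected probe. The value of the brighter Creb5 probe was 0.053 without vehicle replicate 1, 0.12 without insulin replicate 1 and 0.34 without vehicle replicate 3.

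Kinases, transcription factors and ubiquitin ligases that induce, activate or degrade AP-1 subunits formed a list of 28 genes, of which 23 had a probe and 19 were tested. Again 0 were higher and 0 lower past the threshold, 12 were positive and 7 negative, and the median log2 change was 0.079. At an unadjusted p under 0.05 were 3 (2 higher and 1 lower), or 15.8%, against 11% of all genes. Itch, a ubiquitin ligase for Jun proteins, had signals of 102.9, 118 and 97.3 with insulin and 85.9, 101.3 and 86.3 with vehicle. The groups overlapped, and the log2 change was 0.51 ± 0.17 (limma adjusted p = 0.294) at this probe and 0.28 at its other detected probe. Srf, which drives Fos transcription at the serum response element, had signals of 589.2, 492.3 and 603.3 with insulin and 402.5, 554.9 and 443 with vehicle. Vehicle replicate 2 lay above insulin replicate 2, and the log2 change was 0.33 ± 0.15 (limma adjusted p = 0.439), or 0.22 without vehicle replicate 1. Rps6ka5, the kinase MSK1, had a log2 change of -0.30 ± 0.13 without overlap of the groups (limma adjusted p = 0.399), but -0.020 and -0.094 at its other detected probes. The groups did not overlap in 2 of the 19 regulators (10.5%), 0 higher and 2 lower, against 6.59% higher and 9.34% lower over all genes. Det1, a component of a ligase complex for Jun, had a log2 change of -0.23 ± 0.14, or -0.13 without vehicle replicate 1.

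Genes described as AP-1 targets in mouse or human cells formed a list of 32, of which 27 had a probe and 27 were tested. Past the threshold 0 were higher and 0 lower, 16 were positive and 11 negative, and the median log2 change was 0.032. At an unadjusted p under 0.05, 7 were higher and 0 lower, against 4.8% higher and 6.15% lower over all genes. The groups did not overlap in 9 of the 27, 8 higher (29.6%) and 1 lower, against 6.59% higher and 9.34% lower over all genes. The members of this list were chosen with earlier results of these data known, and some of them are induced by factors other than AP-1.

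Odc1, which makes putrescine at the start of the polyamine pathway, had signals of 3110.3, 2953.1 and 2985.1 with insulin and 2563.1, 2256.8 and 1937.5 with vehicle. Every insulin array lay above every vehicle array, and the log2 change was 0.47 ± 0.13 (limma adjusted p = 0.161). Plaur, the receptor of the urokinase plasminogen activator, had signals of 158.2, 169.7 and 180 with insulin and 137.8, 150.2 and 143.4 with vehicle. Its groups did not overlap either, with a log2 change of 0.35 ± 0.12 (limma adjusted p = 0.311). Hbegf, a ligand of the EGF receptor, had signals of 127.2, 132.3 and 142.5 with insulin and 123.9, 107.8 and 115.2 with vehicle, again without overlap and with a log2 change of 0.38 ± 0.14. Vegfa, the angiogenic growth factor, had a log2 change of 0.41 ± 0.12 and of 0.36 at its other detected probe. It is not known here whether these probes also read the Vegf transgene that the line carries. The other 4 targets with insulin arrays above vehicle arrays, named after their values were seen, were Il6, Mt1, Sphk1 and Gja1. Their log2 changes were 0.33, 0.32, 0.29 and 0.19 (limma adjusted p = 0.368, 0.376, 0.430 and 0.622). Il6 lay near the lowest detected level, at log2 levels of 4.87 with insulin and 4.55 with vehicle. The 1 target below was Dusp1, a MAP kinase phosphatase, at -0.19. The targets named here are those of smallest p or without overlap, and do not stand for the list. Over all 27 targets, 16 were positive and 11 negative, with log2 changes down to -0.26 and a median of 0.032.

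**Figure D4:**
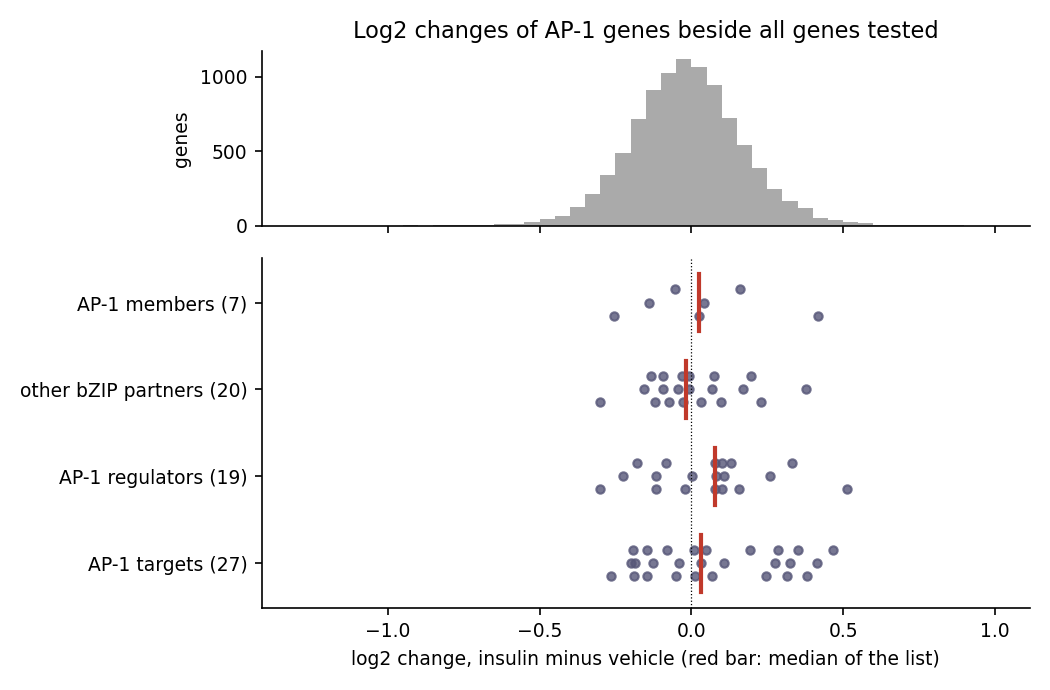
Upper panel, number of genes by log2 change, insulin minus vehicle, for all 9478 genes tested. Lower panel, the same quantity for each tested gene of the AP-1 members (7), the other basic leucine zipper partners (20), the regulators (19) and the targets (27), with a red bar at each list's median, from -0.017 for the partners to 0.079 for the regulators.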

How the data were processed

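The deposited non-normalized table gives a signal per probe and array, a linear intensity without background subtraction, and beside it a detection p-value, per the file headers. GenomeStudio is the software named per the submitters' processing notes; its version and settings are not stated there. The authors' deposited processed values are linear intensity values that a quantile normalization of the non-normalized signals gave to within 3.33e-06, with medians of 76.6 or 76.7 on every array. At most 0.757% of probes had equal non-normalized signals on a pair of arrays. After the neqc correction described below, the 6 arrays correlated at r = 0.988 to 0.992 over the 9478 genes tested.

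Signals were corrected with neqc of limma 3.58.1 in R 4.3.3 (offset 16, background inferred from the detection p-values), quantile normalized and put on the log2 scale. On that scale, removing background stretches differences of dim probes, and the offset lessens this. Probes with a detection p under 0.05 on at least 3 arrays (17482) were kept, and each gene took its brightest kept probe with 1 gene symbol. Of all probes 34885 had 1 symbol, 18 several and 10378 none in the supplied annotation. Entrez identifiers of 34807 probes matched RefSeq (GRCm38.p6), which changed 0 symbols. Insulin and vehicle were compared with limma (lmFit and eBayes, two-sided) and Benjamini-Hochberg adjustment over 9478 genes, without the replicate number. The number of arrays limits the precision. Simulated data were used to test the procedure. The members and gene lists were chosen with earlier results of these data known. The text names all members, up to 4 genes of smallest p per list, and the 3 genes most like the member with the smallest p. In addition, 5 targets whose groups did not overlap were named after their values were seen. No slide or scan date entered the fit. Alternatives changed the background correction, normalization, filter, probe choice, variance model, replicate block and arrays used.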

Additional observations from a re-analysis of the deposited data

Results flagged for a closer look

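The Batf3 probe ILMN_2930552 lay outside the tested measurements because it was detected on fewer than 3 arrays, and it had a signal with insulin above the level in vehicle samples. Its mean non-normalized signal was 81.0 ± 3.70 with insulin and 73.7 ± 2.03 with vehicle (SD, n = 3 each), detected on 2 insulin and 0 vehicle arrays. Of the 27799 probes that failed the filter, 90 (0.324%) met the same description. No other unused AP-1 probe did.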

How the results depend on the processing

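None of the 14 alternatives called an AP-1 member by gene, and none of the 13 that kept single probes called an AP-1 probe. Fos, Jun, Junb and Atf3 kept their direction in 56 of 56 values, but not their size (0.061 to 0.22 for Jun and -0.22 to -0.082 for Junb). Many of these values could not reverse. Changing the filter, probe choice, variance model or replicate block left the log2 changes of these genes identical. Leaving out 1 array could not reverse Fos either, since its groups did not overlap. Fosl2, Jund and Maff did not keep their direction. Without 1 array the log2 change ran from -0.048 to 0.18 for Fosl2, from -0.14 to 0.17 for Jund and from -0.23 to 0.12 for Maff. The median of the members ran from -0.061 to 0.12. With a trended, robust variance model 1 AP-1 target, Odc1, passed (limma adjusted p = 0.0279; 0.0279 to 0.485 over its alternatives). Over all genes, against 44 calls (27.3% higher), there were 29 with normexp fitted to the signals (44.8% higher), 22 with the deposited processed values (50% higher), 83 with the trended, robust model and 2 to 67 without 1 array. Without the filter there were 0 by limma, with 1645 genes at an unadjusted p under 0.05. With the replicate block there were 75 calls, with 0 among the AP-1 members, partners, regulators and targets. Deviations of same-numbered arrays correlated at 0.090, 0.15 and 0.13, each the highest for its array, and those of other pairs at -0.108 to -0.0165. Each group was centred on its own mean, so positive values for some pairs go with negative ones for others by construction. The negative values therefore add no separate information. The same centring ties the values of same-numbered arrays to one another, so they are not separate observations either. Their being higher is at most a weak hint of pairing, from the data and not from the labels. The fit without the block was kept because the labels do not say that the replicate number marks a shared day or culture. The cause of these differences was not tested. Depth of signal limits Fos, Fosb, Batf3 and Maff most, whose signals lie near the lowest detected one.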
